A study of Rattus norvegicus with 28 samples.

Results

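The genes described here carry the danger-sensing and cell-death machinery of the rat spinal cord: Toll-like receptors, the adaptors and kinases that relay their signal, the NF-κB transcription factors with their inhibitors, Nlrp inflammasome genes, caspases, Bcl2 proteins and inhibitor of apoptosis (IAP) genes. They were chosen by symbol alone, as every array feature whose gene name began with Tlr, Casp or Traf and a digit, with Bcl2, Nfkb, Myd88, Irak, Birc or Nlrp, or was Rel, Rela or Relb. The rule found 62 of 35469 features, measured by 79 probes, and 15 of the 62 had more than 1 probe. No feature carried the names Rel or Relb. A probe accession matched a RefSeq transcript for 55 of the 62, among them Bcl2a1d as Bcl2a1, Nfkbil2 as Tonsl, Traf4af1 as Knstrn and Nlrp1 as Nlrp1a. By role they comprised 8 Toll-like receptors, 10 adaptors, kinases and TRAF proteins, 3 NF-κB subunits, 5 IκB inhibitors, 6 Nlrp genes, 3 inflammatory and 6 apoptotic caspases, 5 pro-survival and 1 pro-death Bcl2 protein, 4 IAP genes and 11 others that share a name prefix.

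Expression was measured on 28 one-colour microarrays of thoracic spinal cord from adult female Sprague Dawley rats, with 4 arrays in each of 7 groups. T0 was uninjured cord, which the labels call sham. T1, T2, T4 and T8 were taken 1, 2, 4 and 8 weeks after a severe spinal cord injury (SCI), a 250 kdyn contusion at the eighth thoracic vertebra, as 1.5 cm of cord holding the epicentre. Neural progenitor cells (NPCs), grown from the injured cords of adult rats, were injected beside the lesion right after the contusion and the cord taken at week 1 (T1_NPC), or injected at week 1 and the cord taken at week 2 (T2_NPC). Injured rats without transplant received cell-free medium by the study's account. FK-506 (tacrolimus, an immunosuppressant) was given at 1 mg/kg from the day before transplantation to the end, and the sources used here do not make clear whether untransplanted rats received it. The T2_NPC tissue was labelled with a shorter run of thoracic segments and without the removal of dura that the other labels state. Bulk tissue holds host cells, infiltrating cells and any surviving NPCs together, so fewer cells of a type and less RNA per cell cannot be told apart, nor can host and transplant RNA.

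Toll-like receptors bind microbial molecules and molecules released from damaged cells, and most pass the signal through the adaptor MyD88 to IRAK kinases and TRAF6. The IκB kinases then release NF-κB dimers from their IκB inhibitors, and NF-κB switches on cytokine and survival genes together with several of its own subunits and inhibitors. NLRP3 assembles an inflammasome in which caspase-1 matures interleukin-1β and cuts gasdermin D. In apoptosis, BH3-only proteins such as BIM oppose BCL2 at the mitochondrion, whereas death receptors act through caspase-8, and both routes reach the executioner caspases. After contusion of the cord, microglia and infiltrating macrophages are the main users of the first pathways, and neurons and oligodendrocytes are among the cells that die.

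Because NF-κB acts on promoters, the 250 bases before the RefSeq transcription start (build GRCr8, first listed start of each gene) were searched on both strands for the NF-κB consensus, the general κB motif. The search covered the 42 genes whose probe accession matched RefSeq and whose symbol had 1 promoter in the table. Casp14, Irak1bp1, Nfkb1, Nfkbid, Nfkbiz, Nlrp3 and Traf3 had no such accession match and were not searched. The motif occurred in 7 of the 42 (16.7%), against 967 of all 27457 promoters (3.52%). Of the 26 that were higher than T0 at all 4 time points, 5 held it (19.2%). The matches lay in Tlr2, Nfkb2, Nfkbia, Nfkbie, Birc5, Irak3 and Traf3ip2, and those in Tlr2 were a pair that overlap each other. The promoters of Tlr2 and of the 3 NF-κB and IκB genes are printed 5′ to 3′ with the motif in capitals, because these are the receptor and the pathway's own subunit and inhibitor genes that rose at all 4 time points. A match describes letters and not binding, and no test was made of these shares.

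Tlr2, chr2:171504558-171504807, minus strand: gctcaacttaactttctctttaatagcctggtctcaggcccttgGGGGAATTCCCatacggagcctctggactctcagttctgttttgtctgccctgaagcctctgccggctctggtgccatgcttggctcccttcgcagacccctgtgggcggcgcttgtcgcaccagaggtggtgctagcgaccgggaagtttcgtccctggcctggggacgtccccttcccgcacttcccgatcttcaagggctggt
Nfkb2, chr1:255108124-255108373, plus strand: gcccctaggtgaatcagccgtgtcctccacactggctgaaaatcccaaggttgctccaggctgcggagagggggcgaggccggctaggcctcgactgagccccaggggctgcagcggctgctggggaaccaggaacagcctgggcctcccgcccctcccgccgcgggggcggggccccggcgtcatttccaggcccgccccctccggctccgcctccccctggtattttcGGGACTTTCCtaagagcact
Nfkbia, chr6:78597073-78597322, minus strand: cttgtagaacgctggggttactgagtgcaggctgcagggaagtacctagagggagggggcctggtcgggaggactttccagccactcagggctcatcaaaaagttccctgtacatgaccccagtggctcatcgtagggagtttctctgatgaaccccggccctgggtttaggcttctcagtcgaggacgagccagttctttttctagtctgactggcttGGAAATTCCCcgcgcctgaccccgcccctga
Nfkbie, chr9:22947873-22948122, minus strand: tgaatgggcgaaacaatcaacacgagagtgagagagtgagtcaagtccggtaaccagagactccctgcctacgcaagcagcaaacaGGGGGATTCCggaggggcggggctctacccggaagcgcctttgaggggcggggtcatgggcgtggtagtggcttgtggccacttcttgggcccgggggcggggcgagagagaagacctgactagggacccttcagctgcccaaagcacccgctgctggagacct

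The labels of the arrays need a statement before any result. Each array had an entry in the authors' table of normalised log2 values and a scanner output, and the values of each column were ordered as in a single scanner output (rank correlation 1, at most 0.993 with any other). For 12 arrays this was the output deposited with the same sample, and for 16 it was the output deposited with another sample. All values here follow the table's labels. When the scanner outputs were grouped by the samples they were deposited with, limma called none of the 62 genes in any comparison, and 5, 7, 29 and 18 of them had an unadjusted p under 0.05 at T1, T2, T4 and T8. When only the 12 arrays whose labels matched were used, 42 and 41 genes differed from T0 at T2 and T8. These fits held T0 replicates 1 and 3, T2 replicates 2 and 3, and T8 replicates 2 and 4. T1 and T4 each kept a single array, so no count is given for them. No share of all features is given beside the counts of this paragraph, so they show nothing particular to the 62 genes. With all 28 arrays, 40.0% and 39.7% of all features were called at T2 and T8. The scanner levels of 14 microglia and macrophage markers were summed on the linear scale and are given as log2. By the table's labels these sums were 16.82 to 16.99 on all 4 T0 arrays and 19.04 or more on every other array. As deposited, T0 replicates 2 and 4 read 19.09 and 19.39, while T1 replicate 3 and T2 replicate 4 read 16.82 and 16.99.

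Arrays also carried a scan session. The 20 time-course arrays were scanned in 2 sessions, each holding arrays of T0, T1, T2, T4 and T8, and the 8 NPC arrays formed session 3, on slides of their own. Between the first pair of sessions 31 of the 62 genes differed, 23 of them higher in session 2, while 38.4% of all features differed. Irak1 was higher in session 2 by 1.09 on the log2 scale, Irak4 by 0.74 and Myd88 by 0.73. Within each session alone, every one of the 47, 45, 45 and 44 genes called at T1, T2, T4 and T8 kept its sign. Session 1 held a single T1 array and a single T4 array. The arrays of both sessions had also made the calls, so the shared sign is not an independent check. Session and slide cannot be told apart from transplantation.

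One array stood apart. The second T1_NPC array lay at a median log2 difference from T0 of 1.06 over the 34 genes that were higher at all time points, where the other 3 arrays of its group lay between 1.64 and 1.94 and the T1 arrays between 1.58 and 2.13. Its summed level of 9 T cell marker genes was 10.28 on the log2 scale against 13.25 to 13.30 in its group, and its fibroblast markers summed to 15.18 against 16.82 to 17.78. Its mean correlation with its group was 0.9711, the other T1_NPC arrays reaching 0.9795 to 0.9823. Results on transplantation are therefore given with and without this array.

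**Figure D1:**
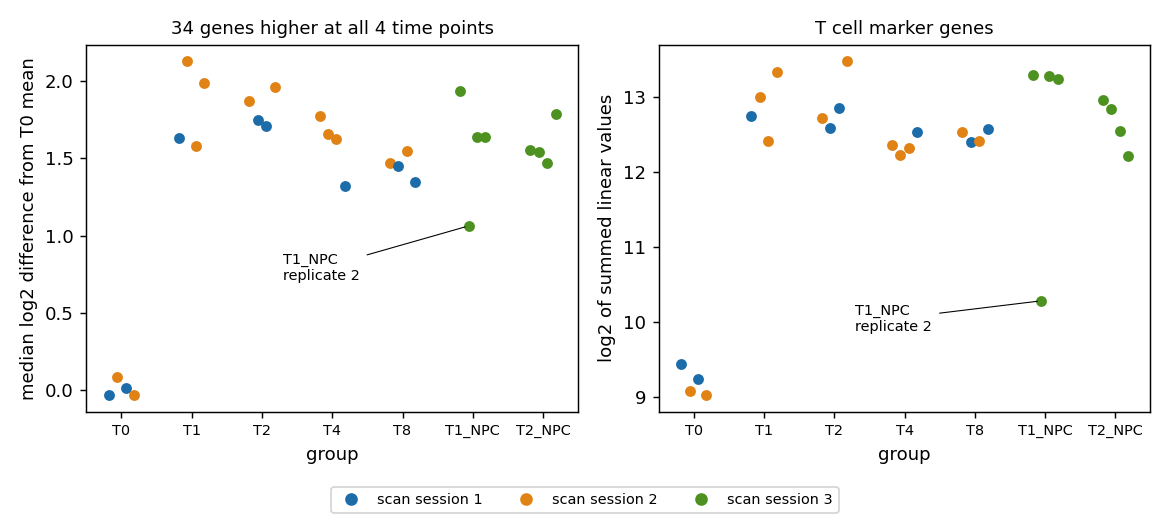
Left, the median log2 difference from the T0 mean over the 34 genes higher at all 4 time points, for each of the 28 arrays by group. Right, the log2 of the summed linear levels of the T cell marker list. Points are single arrays, and the second T1_NPC array, at 1.06 and 10.28, lies below all other injured arrays in both panels.

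SCI moved most of these genes. Against T0, limma with Benjamini-Hochberg adjustment over all features called 47 of 62 at T1 (41 higher, 6 lower), 75.8% of them, against 44.1% of all features, 19.1% higher and 25.1% lower. At T2 it called 45 (38 higher, 7 lower), with 40.0% of all features called, 17.7% higher and 22.2% lower. At T4 it called 45 (38 higher, 7 lower), against 38.5% in all, 17.5% higher and 21.0% lower. At T8 it called 44 (36 higher, 8 lower), against 39.7% in all, 18.2% higher and 21.5% lower. The genes were thus higher more often than array features in general. The median log2 difference of the 62 genes was 1.00, 0.86, 0.88 and 0.86 at the 4 time points, where the median of all features lay between -0.10 and -0.04. The 4 comparisons share the same T0 arrays.

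Across the 4 time points 34 genes were higher at each (54.8%, against 12.3% of all features), 5 were lower at each (8.06%, against 15.9%), 11 passed at some and 12 at none. The 5 lower throughout were Traf3, Bcl2l2, Birc6, Irak1bp1 and Traf3ip1.

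**Figure D2:**
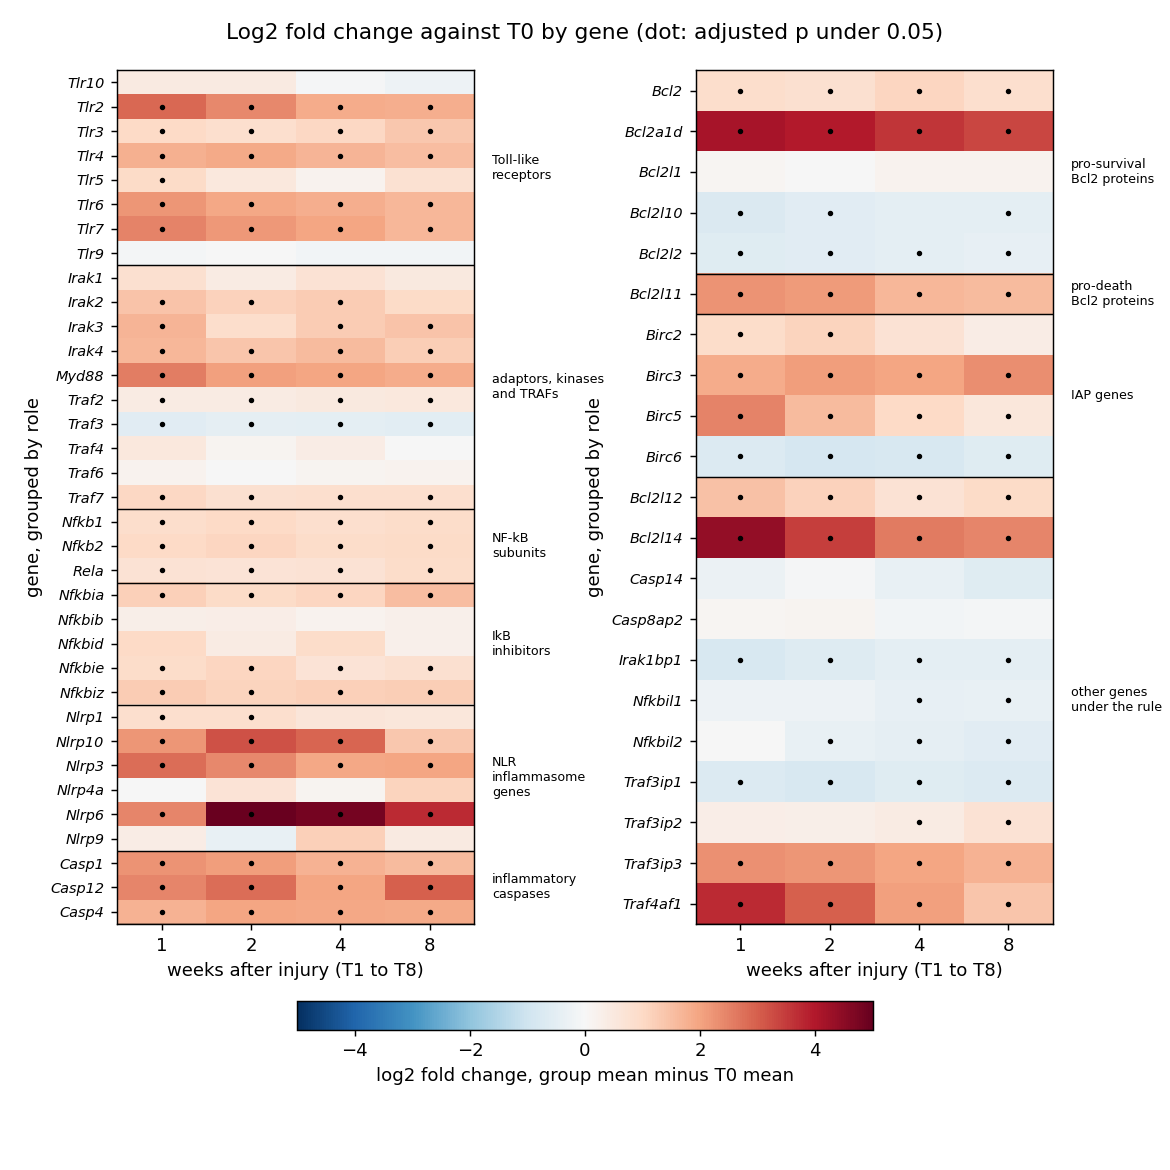
Log2 difference from T0 at T1, T2, T4 and T8 for the genes of every role other than the apoptotic caspases, with genes in rows grouped by role and colour running from blue (lower) to red (higher). Dots mark an adjusted p under 0.05. Most rows are red at all 4 time points, and Traf3, Bcl2l2, Birc6, Irak1bp1 and Traf3ip1 are blue with dots throughout. The rows of Casp14, Tlr10, Nlrp4a and Nlrp9 compare groups in which at most 1 array was well above background.

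Cell-type markers moved over the same interval. At T1, 13 of 14 microglia and macrophage markers rose. The log2 of their summed linear levels went from 16.71 to 16.88 on the T0 arrays to 19.18 to 19.47. Sums below are made the same way and weigh the brightest genes of a list most. T cell markers rose in 8 of 9 cases, from sums of 9.02 to 9.43, where 4 of the 9 were not well above background on any T0 array, to 12.42 to 13.34. Fibroblast markers rose in 8 of 8, from sums of 13.01 to 13.48 to 17.00 to 17.84, and neutrophil markers in 4 of 9, from 7.28 to 7.92 to 9.98 to 10.56. Neuronal markers fell in 12 of 14, from sums of 18.68 to 19.05 to 16.94 to 17.83, and oligodendrocyte markers in 7 of 10. The neuronal and oligodendrocyte markers that define the tissue were well above background in every group. The part of cell composition in the results below was not tested.

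Of the Toll-like receptors, 6 of 8 rose at T1 and 5 at each later time point, with a median log2 difference of 1.39 at T1 and 1.44 at T8. Tlr2, the receptor for bacterial lipoproteins, read 11.78, 11.95, 11.99 and 11.54 (normalised log2 level) on the T0 arrays. At T1 it read 14.61, 14.81, 14.51 and 14.87, and at T8 13.68, 13.51, 13.77 and 13.60. Every injured array of the time course was above every T0 array, with the highest levels at T1. The log2 difference was 2.88 (SE 0.28, adjusted p = 1.82e-08) at T1, a 7.38-fold rise, and 1.82 (adjusted p = 1.45e-05) at T8.

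Tlr7, which senses single-stranded RNA in endosomes, read 6.37, 6.05, 6.24 and 5.88 at T0 and 8.56, 8.67, 8.29 and 8.96 at T1. No T1 array came near the T0 range, and the difference of 2.49 (SE 0.14) had the lowest adjusted p of the receptors, 8.78e-13. Tlr6, a partner of TLR2, rose by 2.22 (SE 0.15, adjusted p = 1.89e-11) at T1 and by 1.64 at T8. Tlr4, the receptor for lipopolysaccharide, went from 8.39, 8.45, 8.56 and 8.23 at T0 to 9.90, 10.31, 10.23 and 10.34 at T1, a difference of 1.79 (SE 0.29, adjusted p = 1.77e-05), and 1.55 remained at T8. These receptors were clear of the T0 range at all 4 time points.

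Tlr3, which binds double-stranded RNA, differed in shape. It read 10.65, 10.13, 10.09 and 10.48 at T0, 10.91, 11.71, 10.90 and 11.80 at T1, and 11.57, 11.48, 11.98 and 11.68 at T8, so that the T8 arrays were the tightest and most distant from T0. Its log2 difference was 0.99 (SE 0.25, adjusted p = 0.00244) at T1 and 1.34 (adjusted p = 0.000143) at T8, and the change from T4 to T8 did not pass the test. Tlr5, the flagellin receptor, was called at T1 alone (0.95, SE 0.30, adjusted p = 0.0121), with the T1 and T0 arrays overlapping. Tlr9, the sensor of unmethylated CpG DNA, had log2 differences between -0.14 and -0.02, and none passed. Tlr10 was not well above background on any array of the time course, so no difference is given.

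Among co-receptors and adaptors outside the set, 7 of 9 listed genes were higher and 2 lower at T1, with a median log2 difference of 3.06. For genes outside the set no background bound was computed, so their values are plain differences of group means. Lbp, which carries lipopolysaccharide, was higher by 7.48, its receptor Cd14 by 4.02, the chaperone of endosomal receptors Unc93b1 by 3.92, and Ly96, the partner of TLR4, by 3.06. The 2 that fell were Sarm1 (-0.81), a neuronal TIR-domain protein that breaks down NAD, and Tollip (-0.31), an inhibitor of TLR signalling.

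Of the 10 adaptors, kinases and TRAF proteins, 6 rose and 1 fell at T1, with 5 or 6 higher and 1 lower later. Myd88, the adaptor shared by most of the receptors, read 5.82, 6.31, 5.48 and 6.74 at T0, 8.25, 9.16, 8.19 and 9.05 at T1, and 8.25, 7.54, 8.16 and 7.84 at T8. No injured array of the time course overlapped with T0. The difference was 2.57 (SE 0.28, adjusted p = 1e-07) at T1 and 1.86 (adjusted p = 1.1e-05) at T8. Irak4, the first kinase of the MyD88 complex, rose by 1.65 (SE 0.27, adjusted p = 2.86e-05) at T1 and by 1.23 at T8. Traf7 rose by 1.02 (SE 0.13, adjusted p = 1.34e-06), and Irak2 and Irak3, the latter an inhibitor of the pathway, were called at T1 at 1.44 and 1.70. Irak3 was not well above background on any T0 array, which bounds its T1 rise at 2.59-fold or more.

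Irak1, the next kinase, read 9.52, 10.51, 9.53 and 10.86 at T0 and 10.13, 11.29, 10.78 and 11.37 at T1. The groups overlapped, and the difference of 0.79 (SE 0.37) had an adjusted p of 0.092. Irak1 was also the gene with the lowest adjusted p between scan sessions (1.38e-06), the session 2 arrays of T0 being the pair above 10. With scan session as a block its T1 difference was 0.51 with an adjusted p of 0.00824, and it was called at all 4 time points. Nfkbib joined it at all 4 under the same block, and 50, 49, 48 and 50 genes were then called, against 47.8%, 45.9%, 42.2% and 45.7% of all features.

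Traf6, the ubiquitin ligase downstream of the IRAK kinases, read 7.75, 8.22, 7.69 and 7.85 at T0 and 7.87, 8.11, 7.95 and 8.22 at T1. The 2 ranges overlapped almost wholly, and the differences at the 4 time points lay between -0.03 and 0.19 (SE 0.23, lowest adjusted p 0.566). Traf3, which restrains the alternative NF-κB pathway, fell by 0.56 (SE 0.14, adjusted p = 0.00161) at T1 and by 0.51 at T8. Thus within the relay Myd88 and Irak4 were higher, Traf6 did not pass and Traf3 was lower.

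All 3 NF-κB subunits on the array rose at every time point, by amounts close to 1 log2 unit or below. Nfkb1, which encodes p105 and p50, read 10.59, 10.50, 10.59 and 10.60 at T0 and 11.29, 11.51, 11.45 and 11.53 at T1. The T0 arrays were close together and all T1 arrays above them, giving a difference of 0.87 (SE 0.16, adjusted p = 8.04e-05). Nfkb2, which encodes p100 and p52, went from 7.04, 7.76, 7.22 and 7.25 to 8.23, 8.41, 8.08 and 8.57, a difference of 1.00 (SE 0.18, adjusted p = 7.75e-05). Rela, which encodes p65, went from 8.06, 8.47, 8.41 and 8.57 to 8.92, 9.28, 8.88 and 9.41, a difference of 0.74 (SE 0.15, adjusted p = 0.000296). At T8 the differences were 0.91, 0.97 and 0.91 for the 3 genes, with no array inside the T0 range. The 2 Nfkb2 probes differed in size, one at 1.44 and 1.52 at T4 and T8 and the other at 0.43 and 0.42. The latter passed at neither time (limma, adjusted p = 0.115 at each), so the later Nfkb2 calls rest on 1 probe.

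The IκB genes rose in 3 of 5 cases at each time point. Nfkbia, which encodes the IκBα that NF-κB itself induces and whose promoter holds a match at 31 to 22 bases before the start, read 11.74, 12.01, 11.53 and 11.32 at T0. It read 12.89, 12.49, 12.85 and 13.15 at T1 and 13.04, 13.20, 12.89 and 13.70 at T8. All of these exceeded T0, by 1.19 (SE 0.30, adjusted p = 0.00217) at T1, 0.96 (adjusted p = 0.0128) at T2 and 1.55 (adjusted p = 0.000186) at T8. Nfkbiz, a nuclear IκB that assists transcription, was higher by 1.26 (SE 0.23, adjusted p = 9.23e-05), and Nfkbie, encoding IκBε, by 0.92 (SE 0.21, adjusted p = 0.000802). Nfkbib differed by 0.30 (adjusted p = 0.172). Nfkbid did not pass, and was well above background on 1 T0 array and 2 T1 arrays.

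In the listed NF-κB kinases and regulators, 12 of 17 rose and 1 fell at T1. Bcl3, a nuclear partner of p50 and p52, was higher by 2.76, 3.11, 2.88 and 2.91 at the 4 time points, a level held without decline. Ripk1, the adaptor kinase of TNF receptors, was higher by 1.83, Card9 by 1.91 and Map3k14, the kinase NIK, by 1.47. Cyld, a deubiquitinase that limits the pathway, was lower by 0.39, whereas Chuk, encoding IKKα, did not pass (0.05, adjusted p = 0.88).

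Of the Nlrp genes, 4 of 6 rose at T1 and T2 and 3 at T4 and T8. Nlrp3 read 5.11, 5.43, 4.84 and 5.59 at T0, 7.55, 8.38, 7.76 and 8.40 at T1, and 7.71, 6.77, 7.36 and 6.97 at T8. Each injured array exceeded the T0 range. The log2 difference was 2.78 (SE 0.33, adjusted p = 3.79e-07) at T1 and 1.96 (adjusted p = 4.35e-05) at T8.

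Nlrp6, an Nlrp gene best known in the gut, was not well above background on any T0 array, where it read 1.53, 2.92, 2.79 and 3.62. It read 3.96, 6.35, 4.50 and 5.80 at T1, and 8.52, 6.85, 6.86 and 8.43 at T2, so that every T2 array was above every T1 array. Its rise was at least 4.54-fold at T1, 25.8-fold at T2, 23.0-fold at T4 and 11.0-fold at T8. Nlrp6 was the only 1 of the 62 genes called higher between T1 and T2 (2.51, SE 0.62, adjusted p = 0.0401). Nlrp10 rose at each time point, by 2.22, 3.19, 2.90 and 1.33.

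The inflammatory caspases rose together. Casp1, which matures interleukin-1β and interleukin-18, read 9.07, 9.0, 9.45 and 8.86 at T0, 11.19, 11.55, 11.03 and 11.61 at T1, and 10.61, 10.55, 10.89 and 10.74 at T8. The injured arrays lay wholly above T0, and the difference went from 2.25 (SE 0.19, adjusted p = 1.31e-09) at T1 to 1.60 at T8. Casp4 rose by 1.73 (SE 0.17, adjusted p = 1.6e-08) at T1 and 1.90 at T8.

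Casp12, a caspase of the endoplasmic reticulum, read 5.69, 5.76, 5.66 and 5.50 at T0, 8.00, 8.34, 8.15 and 7.87 at T1, and 8.30, 8.82, 8.63 and 8.85 at T8. Its difference was 2.44 (SE 0.42, adjusted p = 4.13e-05) at T1, 1.99 at T4 and 3.00 (adjusted p = 3.49e-06) at T8, with no overlap with T0. In the inflammasome list outside the set, 8 of 10 genes rose at T1. Nlrc4, a further inflammasome sensor, was higher by 2.57, Il18 by 2.12, Gsdmd, the pore former, by 1.54, Pycard, the adaptor ASC, by 1.51 and Il1b by 1.32.

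**Figure D3:**
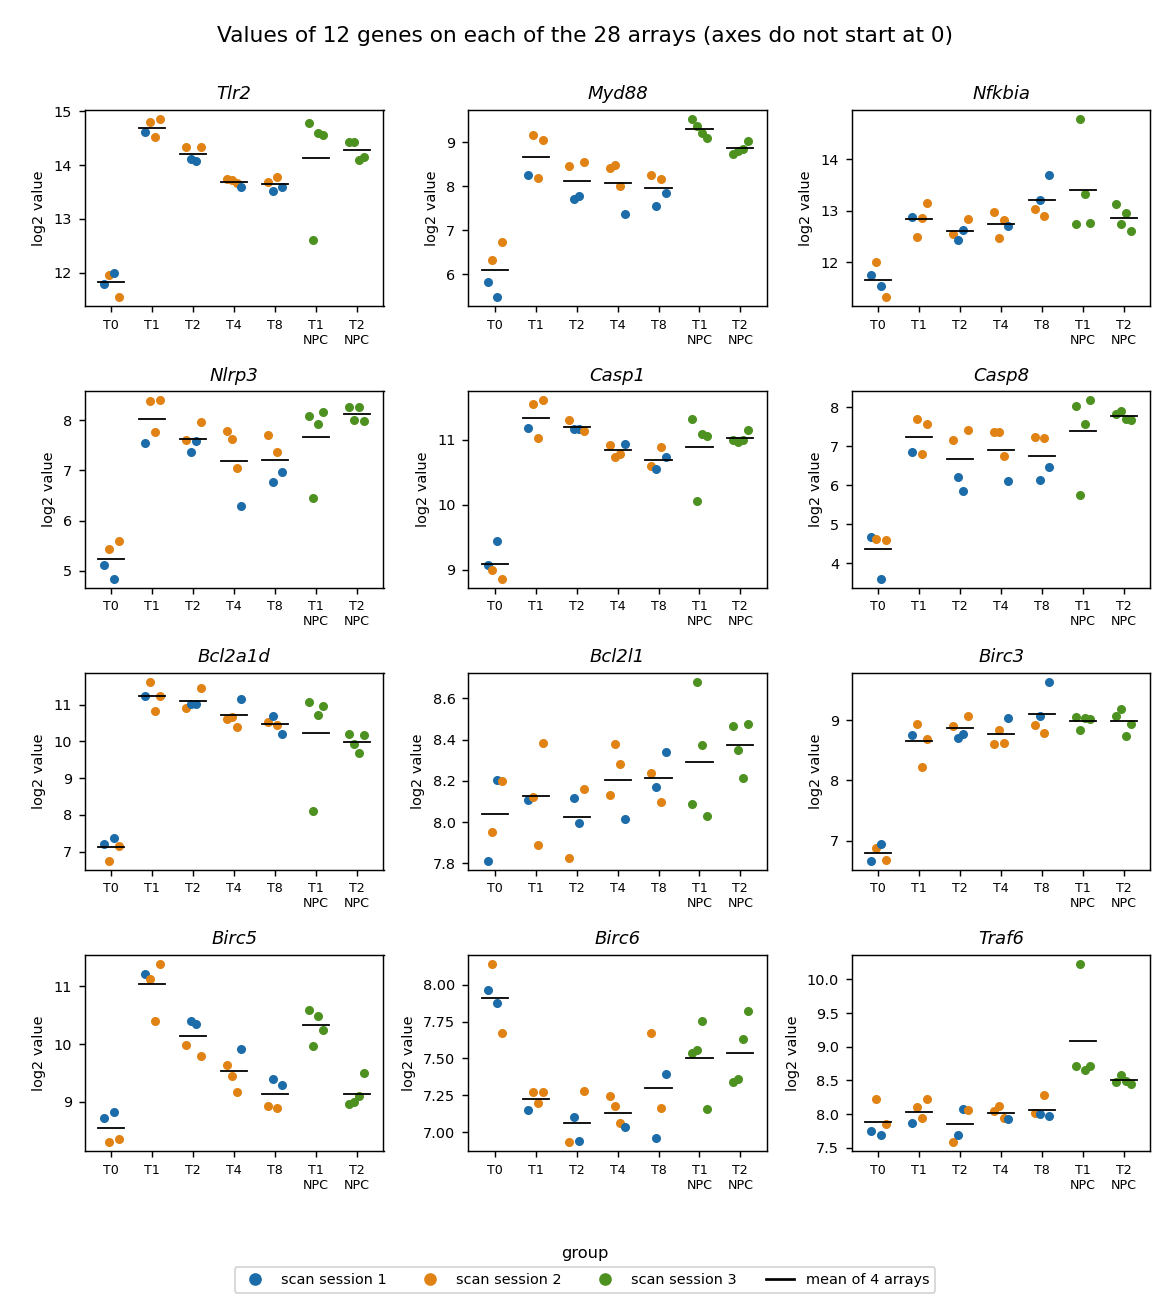
Normalised log2 level of 12 genes on each of the 28 arrays by group, with colour for the scan session and a bar for the group mean. Tlr2, Myd88, Nlrp3, Casp1 and Bcl2a1d lie above T0 on every injured array of the time course, Bcl2l1 and Traf6 overlap with T0 there, and Birc6 is lower.

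Among the apoptotic caspases, Casp8 rose furthest of the 4 described here. This initiator used by death receptors read 4.68, 4.62, 3.60 and 4.60 at T0 and 6.85, 7.71, 6.80 and 7.58 at T1, a difference of 2.86 (SE 0.44, adjusted p = 1.21e-05). It remained higher by 2.39 at T8, with no array in the T0 range. Casp6 was higher by 1.18 (SE 0.23, adjusted p = 0.000226) at T1 and 0.76 at T8, and Casp2 by 0.63 (SE 0.10, adjusted p = 2.57e-05) and 0.52. Casp9, the initiator of the apoptosome, passed at T1 alone (0.46, SE 0.19, adjusted p = 0.0464), with overlapping arrays.

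The Bcl2 family did not move as 1 group. Among the 5 pro-survival genes 2 rose and 2 fell at T1, T2 and T8, and 2 rose and 1 fell at T4. Bcl2a1d, encoding the NF-κB-induced survival protein A1, read 7.20, 6.75, 7.37 and 7.15 at T0, 11.23, 11.61, 10.83 and 11.24 at T1, and 10.51, 10.70, 10.45 and 10.19 at T8. The gap between the groups was over 3 log2 units at T1, with a difference of 4.11 (SE 0.40, adjusted p = 1.47e-08), and 3.34 at T8. Bcl2 itself rose by 0.89 (SE 0.17, adjusted p = 0.000198) at T1 and 0.86 at T8, with no overlap.

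Bcl2l1, which encodes BCL-XL, read 7.81, 7.95, 8.20 and 8.20 at T0, 8.11, 8.12, 7.89 and 8.38 at T1, and 8.24, 8.17, 8.10 and 8.34 at T8. The groups overlapped, and the T1 difference was 0.08 with a 95% interval of -0.20 to 0.37 (adjusted p = 0.671), which leaves out changes of the size seen in Bcl2. These values average 4 probes, of which 1 was well above background on only 3 arrays and differed by 0.54 at T1. The others differed by -0.002, -0.06 and -0.14, and no probe passed at T1. Bcl2l2, encoding BCL-W, fell by 0.59 (SE 0.12, adjusted p = 0.000341) at T1. Its 2 probes differed, one at -1.34 (adjusted p = 4.05e-08) and the other at 0.17 (adjusted p = 0.467), so the fall rests on 1 probe. Bcl2l10 fell by 0.73 at T1.

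Bcl2l11, which encodes the BH3-only killer BIM, was not well above background on any T0 array (3.80, 3.79, 3.67 and 3.64) and read 6.24, 6.12, 5.37 and 6.16 at T1. Its rise was at least 4.75-fold at T1 (adjusted p = 2.18e-06) and 3.00-fold at T8. Bcl2l14, another member by name, rose at least 14.5-fold at T1 and 3.67-fold at T8 by the same bound. Outside the set 6 of 9 BH3-only and pore-forming genes rose and 1 fell at T1. Bmf was higher by 2.74, Bik by 2.31, Bid, which caspase-8 cuts, by 1.59, Bak1 by 1.23 and Bax by 1.00, whereas Hrk, a BH3-only gene of neurons, fell by 0.80.

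Other apoptosome and survival genes split, 3 of 10 higher and 3 lower at T1. Mcl1 was higher by 1.48 and Apaf1, the apoptosome scaffold, by 1.28, while Cycs, encoding cytochrome c, fell by 0.69 and Endog, a mitochondrial nuclease, by 1.21. The death receptor and necroptosis list had 8 of 11 genes higher at T1 and none lower. Tnfrsf1b was higher by 3.62, Ripk3, the necroptosis kinase, by 3.34, Fadd by 1.88, Fas by 1.81 and Tnfrsf1a by 1.78.

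The 4 IAP genes took 4 courses. Birc3, encoding the NF-κB-induced ubiquitin ligase cIAP2, read 6.67, 6.87, 6.94 and 6.68 at T0, 8.76, 8.94, 8.22 and 8.69 at T1, and 8.93, 9.07, 8.79 and 9.63 at T8. All injured arrays were above T0, by 1.86 (SE 0.16, adjusted p = 3.17e-09) at T1 and 2.31 (adjusted p = 1.28e-10) at T8. Birc2, encoding cIAP1, passed at T1 (0.91, SE 0.31, adjusted p = 0.02) and T2 (1.10) but at neither later point (0.73 and 0.38). Birc6, a large ubiquitin ligase, read 7.96, 8.14, 7.87 and 7.67 at T0 and 7.15, 7.27, 7.20 and 7.28 at T1, a fall of 0.69 (SE 0.15, adjusted p = 0.00052).

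Birc5, encoding survivin, which also serves chromosome segregation in dividing cells, declined stepwise. It read 8.71, 8.30, 8.83 and 8.35 at T0, 11.22, 11.13, 10.40 and 11.39 at T1, and 9.99, 10.41, 10.35 and 9.79 at T2. At T4 it read 9.65, 9.44, 9.16 and 9.92, and at T8 8.93, 9.39, 8.90 and 9.29. The lowest T1 array (10.40) lay just under the highest T2 array (10.41), and the T8 arrays lay just above T0. Its difference from T0 was 2.49 (SE 0.21, adjusted p = 1.83e-09), 1.59, 1.00 and 0.58 (adjusted p = 0.0324). The proliferation markers showed the same course, 11 of 11 higher at T1, with sums of 10.25 to 10.82 at T0, 13.83 to 14.40 at T1 and 11.82 to 12.11 at T8, and their part in the Birc5 values was not tested. Traf4af1, whose RefSeq name is Knstrn, a kinetochore gene, went the same way, at 3.75, 2.97, 2.04 and 1.37.

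Of the 11 other genes that share a name prefix, 4 rose and 2 fell at T1, and 5 rose and 4 fell at T8. Traf3ip3, known from lymphocytes, read 7.15, 7.21, 7.02 and 7.13 at T0 and 9.18, 9.56, 9.20 and 9.67 at T1, a difference of 2.28 (SE 0.29, adjusted p = 9.75e-07) with wide separation. Bcl2l12 rose by 1.47 (SE 0.16, adjusted p = 1.01e-07). Irak1bp1, an IRAK1-binding protein, was lower by 0.79 (SE 0.10, adjusted p = 7.98e-07), and Traf3ip1, a protein of cilia, by 0.70 (SE 0.12, adjusted p = 5e-05). Traf3ip2, the adaptor of the interleukin-17 receptor, passed at T4 and T8 (0.73 at T8), and Nfkbil1 was lower at T4 and T8. The Traf3ip2 call at T4 holds for the mean of its 2 probes, and neither passed alone there (limma, adjusted p = 0.228 and 0.0811).

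Depth limited some of the genes. Of the 62, 49 were well above background on all 28 arrays, 12 on some and Casp14, a caspase of skin, on none. A filter on dim probes kept 57 and left out Casp14, Nfkbid, Nlrp4a, Nlrp9 and Tlr10, none of which was called against T0.

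Between successive time points few of the genes passed. From T1 to T2 limma called 2 of 62 against 1.48% of all features (0.815% higher and 0.665% lower), namely Nlrp6 (higher) and Birc5 (-0.90, SE 0.21, adjusted p = 0.0304), with 7 at an unadjusted p under 0.05. Neither was called when T1 replicate 1 or 4 or T2 replicate 1, 3 or 4 was left out. From T2 to T4 limma called 0 against 0.0761% of all features, and from T4 to T8 0 against 0.0902%, with 5 genes in each at an unadjusted p under 0.05. Scan session 2 alone did not call the Birc5 fall, and session 1 held a single T1 array. The fall was called without the second T1_NPC array (adjusted p = 0.0187). Without that array Tlr2 was called lower as well, by 0.49 from T1 to T2 (adjusted p = 0.0197) and by 0.53 from T2 to T4 (adjusted p = 0.0378). In session 2 alone Casp12 and Nfkbie were called lower from T2 to T4. The Traf4af1 arrays lay wholly below those of the step before, at 9.04 to 9.78, 8.55 to 8.93, 7.58 to 8.08 and 7.02 to 7.20 for T1, T2, T4 and T8, but its steps of -0.78, -0.93 and -0.67 did not pass (lowest adjusted p 0.176). The lower Casp1 values at later points are descriptions.

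Transplantation was compared at matched times. For T1_NPC against T1, limma called 6 of 62 genes, 2 higher and 4 lower (9.68%, against 11.9% of all features, 5.45% higher and 6.46% lower), with 15 at an unadjusted p under 0.05. For T2_NPC against T2 it called 5, 3 higher and 2 lower (8.06%, against 9.47%, 4.62% higher and 4.85% lower), again with 15 unadjusted. These shares are near those of all features. The counts moved with the fit: with slide as a random block each was 1, with only the 2 groups compared they were 0 and 9, the first was 1 without the second T1 array, and the second was 3 without the first T2 array or the second T2_NPC array. The median log2 difference of the 62 genes was 0.07 and 0.03, with all features at -0.01 and -0.03. The difference between the effects of early and later transplantation was called for 0 of 62 genes, against 0.299% of all features, and 0 genes had an unadjusted p under 0.05.

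Traf6, which did not pass at any time point after SCI alone, read 8.72, 10.23, 8.66 and 8.71 in T1_NPC against 7.87, 8.11, 7.95 and 8.22 in T1. All 4 were above T1, the second T1_NPC array by the widest margin. The difference was 1.04 (SE 0.23, adjusted p = 0.005), and 0.66 (adjusted p = 0.00341) without that array. In T2_NPC it read 8.48, 8.58, 8.50 and 8.44 against 7.58, 7.69, 8.07 and 8.06 in T2, also without overlap, at 0.65 (adjusted p = 0.0776 with all arrays and 0.00156 without the second T1_NPC array, which enters through the shared spread).

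Birc5 read 10.59, 9.96, 10.49 and 10.25 in T1_NPC and 8.95, 8.99, 9.10 and 9.50 in T2_NPC. It was lower than in T1 by 0.71 on the log2 scale (SE 0.21, adjusted p = 0.0312), with overlapping arrays, and lower than in T2 by 1.00 (adjusted p = 0.0046), with none. Without the second T1_NPC array the first value was -0.59 with an adjusted p of 0.107. None of the 11 proliferation markers was called in either comparison.

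Tlr7 was higher in T2_NPC, at 8.96, 8.77, 8.92 and 8.74, than in T2, at 8.27, 8.31, 8.30 and 8.38, by 0.53 (SE 0.14, adjusted p = 0.016), and Birc6 by 0.48 (adjusted p = 0.0442), neither with overlap. Casp8ap2, a caspase-8-binding nuclear protein, was lower by 0.37 (adjusted p = 0.0496) in T1_NPC and by 0.47 (adjusted p = 0.0172) in T2_NPC. Traf3ip3 was lower by 1.05 (adjusted p = 0.0217) and Irak1bp1 by 0.31 (adjusted p = 0.0486) in T1_NPC. Tlr10 was called higher in both comparisons, but it was not well above background on any T1 or T1_NPC array, so no fold is given there, and in T2_NPC it passed background on 2 of 4 arrays and was at least 2.68-fold higher.

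Leaving out the second T1_NPC array changed which genes passed. T1_NPC against T1 then had 4 calls, 2 higher and 2 lower, against 8.51% of all features, with Birc5 and Casp8ap2 (-0.32, adjusted p = 0.133) no longer among them and Traf3ip3 at -0.55. T2_NPC against T2 had 11, 6 higher and 5 lower, against 12.6%. Bcl2a1d then joined at -1.11 (adjusted p = 0.000449), its T2_NPC arrays at 10.19, 9.92, 9.69 and 10.17 lying below the T2 arrays at 10.91, 11.03, 11.02 and 11.44. Tlr4 (-0.50, adjusted p = 0.0135), Casp8 (1.12, adjusted p = 0.0405), Traf2, Traf3ip3 and Traf6 were the others.

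**Figure D4:**
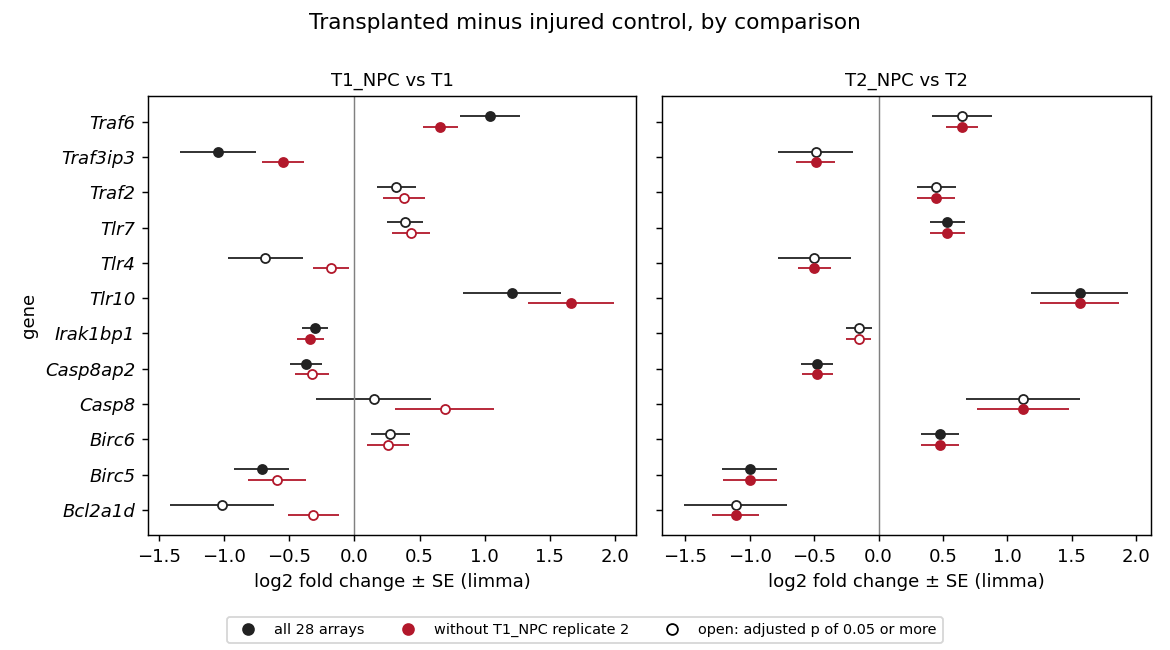
Log2 difference with its SE for 12 genes, T1_NPC against T1 and T2_NPC against T2, with all arrays and without the second T1_NPC array. Filled points have an adjusted p under 0.05, such as Traf6 in T1_NPC at 1.04 and 0.66 and Birc5 in T2_NPC, lower by 1.00. Tlr10 was not well above background on any T1 or T1_NPC array.

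Nfkbia read 12.74, 14.79, 13.33 and 12.76 in T1_NPC, overlapping with T1, and its difference of 0.56 (adjusted p = 0.238) did not pass. Its value on the second T1_NPC array was the highest of all 28. Outside the set, Ripk3 was lower in both transplanted groups, by 0.73 in T1_NPC and by 0.95 in T2_NPC, Gsdmd was lower by 0.47 in T1_NPC and Xiap, the X-linked IAP, higher by 0.51 in T2_NPC. Some marker lists moved with transplantation. Endothelial markers summed to 14.84 to 15.22 in T1_NPC and 14.63 to 14.78 in T1, oligodendrocyte markers to 18.52 to 18.63 in T2_NPC and 18.01 to 18.34 in T2, and B and plasma cell markers to 12.80 to 12.87 in T2_NPC and 12.02 to 12.68 in T2, each without overlap. Their part in the transplantation results was not tested. Of single markers limma called few. Of 14 microglia and macrophage markers 1 was lower in T1_NPC and 1 higher in T2_NPC, of 10 oligodendrocyte markers 2 were higher in T2_NPC, of 9 endothelial markers 1 was higher in each, no T cell, B cell, neutrophil, astrocyte, neuronal or fibroblast marker was called, and of 9 neural progenitor markers none was called in T1_NPC and 1 in T2_NPC. NF-κB subunits, IκB genes, Nlrp genes and inflammatory caspases had no call in either comparison with all arrays.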

How the data were processed

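Total RNA was labelled with 1 dye and hybridised to Agilent rat 4x44K arrays. The authors deposited Feature Extraction output (version 10.7.1.1, per the labels) with spot intensity on a linear scale, and a table of log2 values made from background-corrected signals by quantile normalisation. The array holds 45018 spots, of which 1639 were controls. Table rows were matched to spots by feature number, and spots and then probes of 1 gene name were averaged, giving 35469 features. Outlier spots (0.307%) were left out only where scanner outputs were used, and the table's values kept all spots. Between 74.5% and 82.7% of spots per array were well above background. As no depth exists for arrays, 4 per group limit the precision.

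Group means were fitted over all 28 arrays with limma 3.58.1 in R 4.3.3 (lmFit, eBayes, prior degrees of freedom 2.26), two-sided, with Benjamini-Hochberg adjustment over all features and an adjusted p under 0.05. By the study's account the 4 arrays of a group are biological replicates from separate animals. A fold against a group below background is a bound: the bright group's mean against, on each array, the lower limit of well-measured signal or the dim probe, whichever was higher. This bound was computed only for the genes chosen by the rule. Alternatives included other scaling, normexp on the deposited intensity values, dim-probe filters, blocks for slide, session and replicate number, and 1 array left out. The code was tested on simulated data. The genes and lists were chosen with earlier results of these data known. Named genes were fixed anchors, the largest changes per role, all calls outside the T0 comparisons, genes with disagreeing probes and undetected genes. All other names were chosen after their values were seen. Results of some genes are not reported here.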

Additional observations from a re-analysis of the deposited data

Results flagged for a closer look

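In 12 of the 210 gene and group sets examined (30 genes in 7 groups of 4), 1 array lay far from the other 3 by Dixon's 95% criterion, where chance gives about 1 in 20. The second T1_NPC array accounted for 5: Tlr2 read 12.61 (others 14.57 to 14.79), Bcl2a1d 8.11 (10.71 to 11.07), Nlrp3 6.45 (7.93 to 8.17), Bcl2l11 4.16 (5.69 to 5.95) and Traf6 10.23 (8.66 to 8.72). The first 4 were low and Traf6 was high on that array. The remaining sets were scattered. Nfkb1 read 10.50 on the second T0 array (others 10.59 to 10.60), and Casp8 3.60 on the third (4.60 to 4.68). Bcl2l11 read 5.37 on the third T1 array (6.12 to 6.24). Casp1 read 11.31 on the first T2 array (11.14 to 11.17), and Traf3ip3 8.97 on the second (9.43 to 9.49). Traf6 read 8.29 on the third T8 array (7.97 to 8.02), and Irak1bp1 7.25 on the first T1_NPC array (7.59 to 7.60).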

How the results depend on the processing

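With scanner outputs grouped as deposited, 0 of the genes were called at T1, T2, T4 or T8 against T0, at all 4, for T2 against T1 and in both transplantation comparisons. Under that grouping 15 called differences turned sign, none with a call: at T1 Nfkbia (-0.32) and Tlr5 (-0.24), at T2 Nfkbia (-0.40), Bcl2 (-0.0498), Bcl2l10 (0.18), Irak2 (-0.12) and Nfkbil2 (0.0898), at T4 Traf3ip2 (-0.0344), at T8 Bcl2l10 (0.0219), for T2 against T1 Birc5 (0.29), and in T1_NPC Traf6 (-0.31), Casp8ap2 (0.10), Irak1bp1 (0.13), Tlr10 (-0.77) and Traf3ip3 (0.50). The cause was not tested. Requiring a change of at least 2-fold left 30, 29, 26 and 24 genes at T1, T2, T4 and T8, 21 at all 4, 1 for T2 against T1, 3 in T1_NPC and 1 in T2_NPC. For T2 against T1 there were 0 calls with only the groups compared, 1 in session 2 alone, and 4 with time-course arrays alone. With the 12 arrays of matching labels, and in session 1 alone, T1 kept a single array, so no count is given. T4 against T2 had 1 call with time-course arrays alone and 2 in session 2 alone. T1_NPC had 1 call with slide as a random block and 0 with only its groups. T2_NPC had 21 with arrays of matching labels, 1 with the slide block and 9 with only its groups. With all arrays 9.47% of all features were called in T2_NPC. The counts in this and the next paragraph stand without the share of all features under each fit. They show only how the calls moved with the fit. The scan-session fits were chosen after seeing the data.

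Leaving out 1 array at a time gave 43 to 49 calls at T1, 39 to 46 at T2, 41 to 49 at T4, 41 to 45 at T8, 37 to 41 at all 4, 0 to 3 for T2 against T1, 0 to 1 for T4 against T2, 0 to 0 for T8 against T4 and for the difference between transplantation effects, 1 to 7 in T1_NPC and 3 to 11 in T2_NPC. With the replicate number as a block, 1 gene was called for T2 against T1, 4 in T1_NPC and 4 in T2_NPC, and 47, 44, 45 and 43 at T1, T2, T4 and T8. Over 36 same-number pairs the correlation of deviations ran from -0.34 to 0.30 and exceeded 0.1 in 12. The highest came from a pair within 1 scan session (T2 and T1, replicate 4). The lowest came from a pair across 2 sessions (T4 and T0, replicate 4). Because scan session was shared in some pairs and not in others, this check cannot decide whether the numbers pair the arrays. Scaling to the 75th percentile moved the median of all features at T1 from -0.10 to -0.27 and called 48, 47, 46 and 46. Outside the as-deposited grouping no called gene changed sign under the alternatives run. Slide or session as a fixed block could not be fitted for the transplantation comparisons, nor matching labels for T1_NPC. Dim signal limits Nlrp6, Bcl2l11, Bcl2l14, Irak3 and Tlr10.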
